A study of Mus musculus with 6 samples.

Results

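The insulin-like growth factor (IGF) system of the subventricular zone was followed across 10 genes: the ligands Igf1 and Igf2, the receptors Igf1r and Igf2r, and the binding proteins Igfbp2 to Igfbp7. Every gene was found by its symbol on probe sets that the array annotation gives to that symbol alone. The 10 genes stood among 18193 genes measured and were read by 28 of 45101 probe sets. For each gene the probe set with the highest mean over the 6 arrays was used, and the others served as a check.

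Tissue came from adult male C57BL/6 mice, 3 samples taken 48 h after middle cerebral artery occlusion (MCAO) on the lesioned side and 3 taken 48 h after sham surgery. MCAO blocks the artery that supplies the striatum and lateral cortex and is used as a model of stroke. The subventricular zone lines the lateral ventricle and holds neural stem cells, their dividing progeny and migrating neuroblasts. The labels name no genetic modification, and do not say whether an array held tissue of 1 mouse or of a pool, so the p-values reflect only how far these samples scatter, in part perhaps for technical reasons.

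IGF1 and IGF2 are small secreted hormones that act mainly through the tyrosine kinase receptor IGF1R, whose signal runs through IRS adaptors to PI3 kinase and AKT and favours growth, survival and division. IGF2R, which also carries mannose-6-phosphate-tagged enzymes to lysosomes, takes up IGF2 for degradation. The binding proteins hold the ligands in extracellular fluid, where they may restrain them or deliver them to receptors, and proteases such as PAPPA set the ligands free. In adult brain, microglia are a known source of IGF1 after injury, and choroid plexus and meninges are known sources of IGF2.

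Igfbp2 and Igfbp7 differed most from sham, Igfbp7 on 1 of its 3 probe sets. With limma (moderated statistics, Benjamini-Hochberg adjustment over all genes, threshold 0.05), 0 of the 10 genes passed when the 2 groups were compared without pairing, although 4 had an unadjusted p under 0.05, as had 1598 of the 18193 genes; 207 of all genes, or 1.14%, passed, with 1.12% as rises and 0.0165% as falls. Samples of both groups carry the numbers 1 to 3, and same-numbered samples deviated together, most of all those numbered 1. With that number as a block, Igfbp2, Igfbp7 and Igf1 rose, 3 of the 10, and 0 fell. The same fit called 6.14% of all genes, 4.83% as rises and 1.31% as falls. Among the 10 genes it called 2 without the samples numbered 1, 5 without those numbered 2 and 4 without those numbered 3, where it called 660, 2040 and 667 of all 18193 genes. The median difference over the 10 genes was 0.16 log2, against −0.01 over all genes measured.

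The promoters of Igfbp2 and Igfbp7 are shown because these genes had the 2 largest mean differences from sham. Each line gives the 250 bases before the outermost RefSeq start of the gene on assembly GRCm38.p6, 5′ to 3′ on the gene's strand, with matches to the searched motifs in capitals. The Igfbp2 window lies at chr1:72824230-72824479 on the plus strand and the Igfbp7 window at chr5:77408046-77408295 on the minus strand.
Igfbp2: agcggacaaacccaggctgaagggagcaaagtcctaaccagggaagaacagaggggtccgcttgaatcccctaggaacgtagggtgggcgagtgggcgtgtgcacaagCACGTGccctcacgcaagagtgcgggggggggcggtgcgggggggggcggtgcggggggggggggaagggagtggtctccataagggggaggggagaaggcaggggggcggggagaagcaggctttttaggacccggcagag
Igfbp7: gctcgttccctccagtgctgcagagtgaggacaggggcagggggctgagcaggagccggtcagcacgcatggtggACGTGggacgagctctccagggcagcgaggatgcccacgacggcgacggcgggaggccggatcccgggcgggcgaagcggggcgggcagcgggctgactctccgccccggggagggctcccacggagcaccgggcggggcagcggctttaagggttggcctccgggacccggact

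Both windows were rich in G and C, at 67.2% for Igfbp2 and 74.0% for Igfbp7, against a median of 52.4% over 32851 RefSeq promoters. Motifs searched on both strands were TGAGTCA, the AP-1 site, TTCNNNGAA, a STAT-type site, ACGTG, the core of the hypoxia response element and of one kind of E-box, and TATAAA. The Igfbp2 window held ACGTG on each strand, in overlapping matches that begin at positions −142 and −141 from the start site, and the Igfbp7 window held it on 1 strand. ACGTG was present in 16.6% of all promoters, TGAGTCA in 4.46%, TTCNNNGAA in 7.02% and TATAAA in 12.4%. Igfbp2 has a second RefSeq start inside the gene, and the stretch around its TGAGTCA match reads tgaaacaaaactTGAGTCAgtgaccaccgg. All 10 genes had a RefSeq promoter, 14 windows in all. Of these 14 windows, 4 held ACGTG, 2 held TATAAA, 1 held TGAGTCA and 0 held TTCNNNGAA. The Igf1 window, which lies before a RefSeq start inside the gene, held none of the 4 motifs. The same was true of the windows of Igf1r, Igfbp3 and Igfbp5 and of some of those of Igf2.

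**Figure D1:**
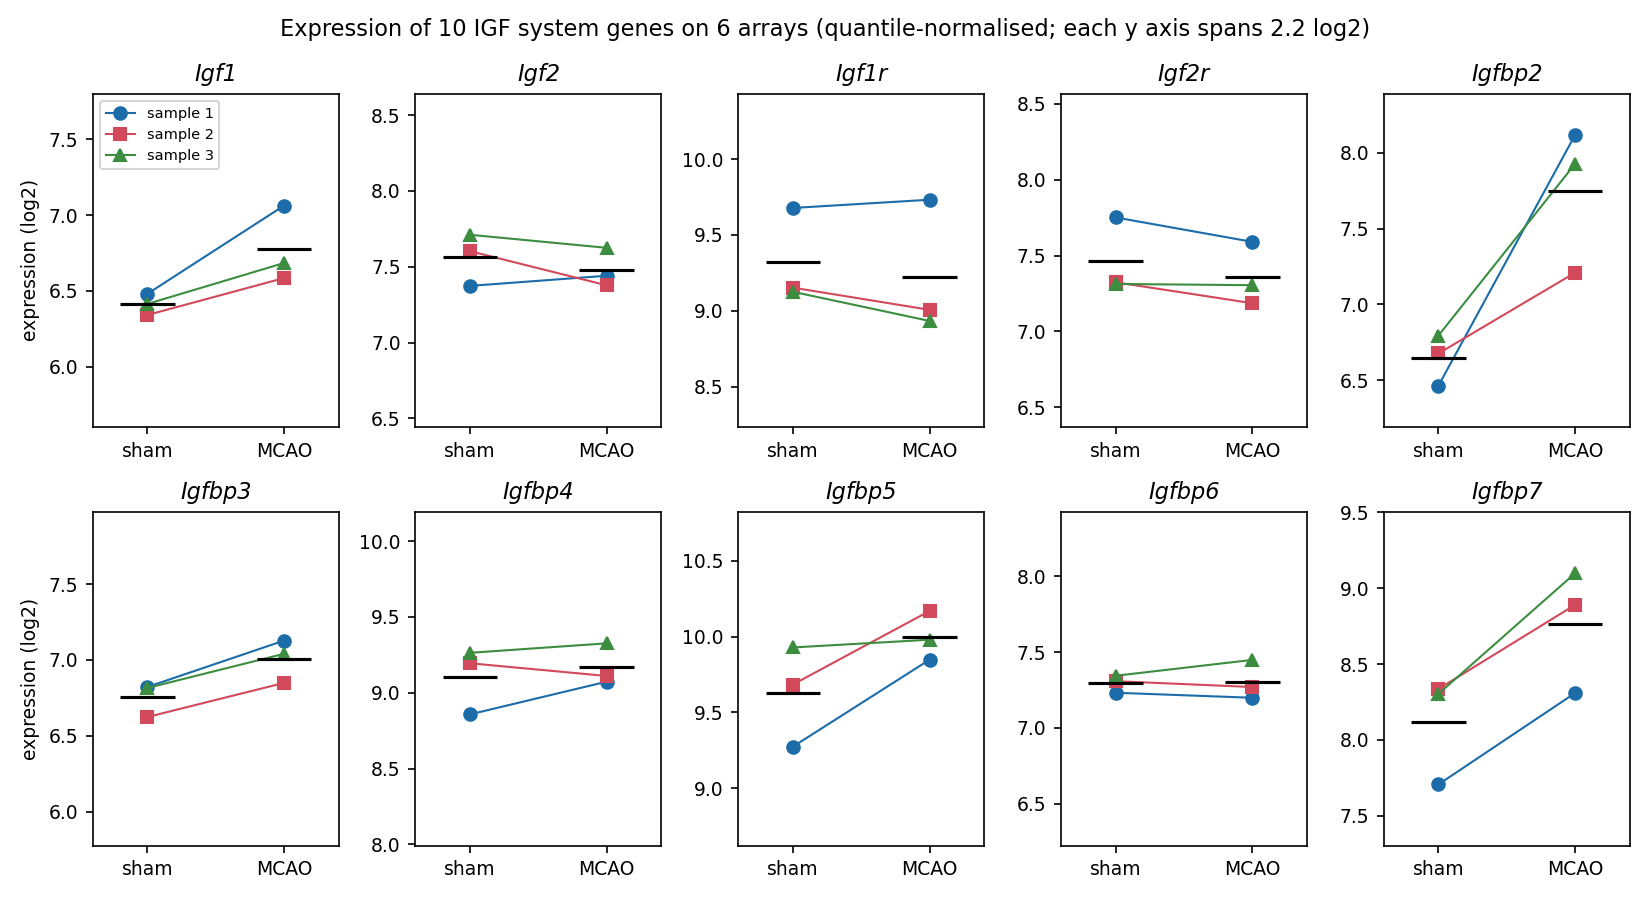
Expression (log2, quantile-normalised) of the 10 genes in sham and MCAO tissue, 1 panel per gene, with a point per array, a line joining same-numbered samples and a black bar at each group's mean. MCAO lies above sham within all 3 pairs for Igf1, Igfbp2, Igfbp3, Igfbp5 and Igfbp7, and the groups stand fully apart only for Igf1, Igfbp2 and Igfbp3.

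Among the ligands, Igf1 read 7.06, 6.58 and 6.68 log2 on MCAO samples 1, 2 and 3 and 6.48, 6.34 and 6.41 on sham samples 1, 2 and 3. Every MCAO value lay above every sham value, and MCAO sample 1 was the highest. MCAO averaged 6.78 ± 0.25 (SD, n = 3) and sham 6.41 ± 0.07. The gap was 0.36 ± 0.13 log2 (SE), or 1.29-fold. Without the block limma's adjusted p was 0.387, and with it 0.0264 (SE 0.08). Within same-numbered samples the differences were 0.58, 0.24 and 0.27, so the pair numbered 1 differed most. Leaving that pair out of the blocked fit gave 0.26 with an adjusted p of 0.300, so that the call for Igf1 depended on samples 1.

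All 4 probe sets of Igf1 had a higher mean in MCAO, at 0.36, 0.22, 0.19 and 0.10 log2, and only the brightest passed with the block. On the probe set at 0.10 only MCAO sample 1, at 6.83, lay above the sham values of 6.27 to 6.39. MCAO samples 2 and 3, at 6.25 and 6.16, lay below all of them there.

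Igf2, the growth factor of choroid plexus and meninges, read 7.44, 7.38 and 7.63 in MCAO and 7.37, 7.60 and 7.71 in sham, with overlapping groups. The difference was −0.08 log2 with a 95% interval from −0.34 to 0.17 (limma's adjusted p = 0.955), or from −0.25 to 0.09 with the block. Its other probe set read −0.10. Levels of different genes are not ranked here, because probe sets bind with different strength.

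Neither receptor passed the test with or without the block. Igf1r, the signalling receptor for both ligands, read 9.73, 9.01 and 8.93 in MCAO and 9.68, 9.15 and 9.13 in sham. The samples numbered 1 were the highest of both groups. The difference was −0.09 log2, with an interval from −0.64 to 0.45 without the block and from −0.26 to 0.07 with it (limma's adjusted p = 0.982 and 0.572). The 4 other probe sets of Igf1r read between −0.25 and 0.02. One of them, at −0.25 with an interval from −0.44 to −0.05, had an adjusted p of 0.462, and 0.127 with the block.

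Igf2r, the clearance receptor for IGF2, read 7.59, 7.19 and 7.30 in MCAO and 7.75, 7.32 and 7.31 in sham. The differences within pairs 1, 2 and 3 were −0.16, −0.14 and −0.01, all lower in MCAO, and the groups overlapped. The difference of −0.10 log2 had a 95% interval from −0.26 to 0.05 with the block (limma's adjusted p = 0.497), and the second probe set read −0.16.

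The binding proteins held the 2 largest differences. Igfbp2, a carrier made by astrocytes, choroid plexus and meninges, read 8.12, 7.21 and 7.93 in MCAO and 6.46, 6.68 and 6.80 in sham. All MCAO values lay above all sham values, with MCAO sample 2 the closest to sham. The means were 7.75 ± 0.48 (SD, n = 3) and 6.65 ± 0.17, a difference of 1.11 ± 0.22 log2 (SE), or 2.15-fold. By limma the adjusted p was 0.0786 unblocked. It was 0.00209 with the block, where the 95% interval ran from 0.75 to 1.46. Differences within pairs were 1.65, 0.53 and 1.13. Without the block Igfbp2 passed in 1 of 6 fits that left out a single array. That fit left out MCAO sample 2, the closest to sham (difference 1.38, limma's adjusted p = 0.0119). The other adjusted p-values of these fits ran from 0.112 to 0.288. Igfbp2 also passed when the variance was allowed to follow intensity (adjusted p = 0.0291). It did not pass on the values as deposited (0.0839) or with robust variance (0.0821). The blocked call held without each pair in turn, at 0.83, 1.39 and 1.09 log2. Igfbp2 had 1 probe set, so no second reading was at hand.

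Igfbp7, a secreted protein of blood vessels that binds IGFs weakly, read 8.31, 8.89 and 9.10 in MCAO and 7.71, 8.34 and 8.30 in sham. The groups overlapped, because MCAO sample 1 stood between the sham values, yet within pairs the differences were 0.60, 0.55 and 0.80. The mean difference was 0.65 log2, or 1.57-fold, with an SE of 0.23 without the block and 0.07 with it. Limma's adjusted p was 0.418 unblocked and 5.00e-04 blocked. In the blocked fit the call held without each pair in turn, at 0.67, 0.70 and 0.58. Without both samples numbered 1 Igfbp7 also passed with no block (0.67, limma's adjusted p = 0.0223). With no block and a single array left out it passed in 0 of 6 fits (adjusted p from 0.108 to 0.757).

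The probe sets of Igfbp7 disagreed. The brightest read 0.65 log2, while the other two read −0.05 (95% interval −0.28 to 0.19) and 0.11 (−0.12 to 0.34), with an adjusted p over all probe sets of 0.866 and 0.557 under the block. The mean of its 3 probe sets differed by 0.24 without the block (adjusted p = 0.738). The rise of Igfbp7 therefore rests on 1 of 3 probe sets.

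**Figure D2:**
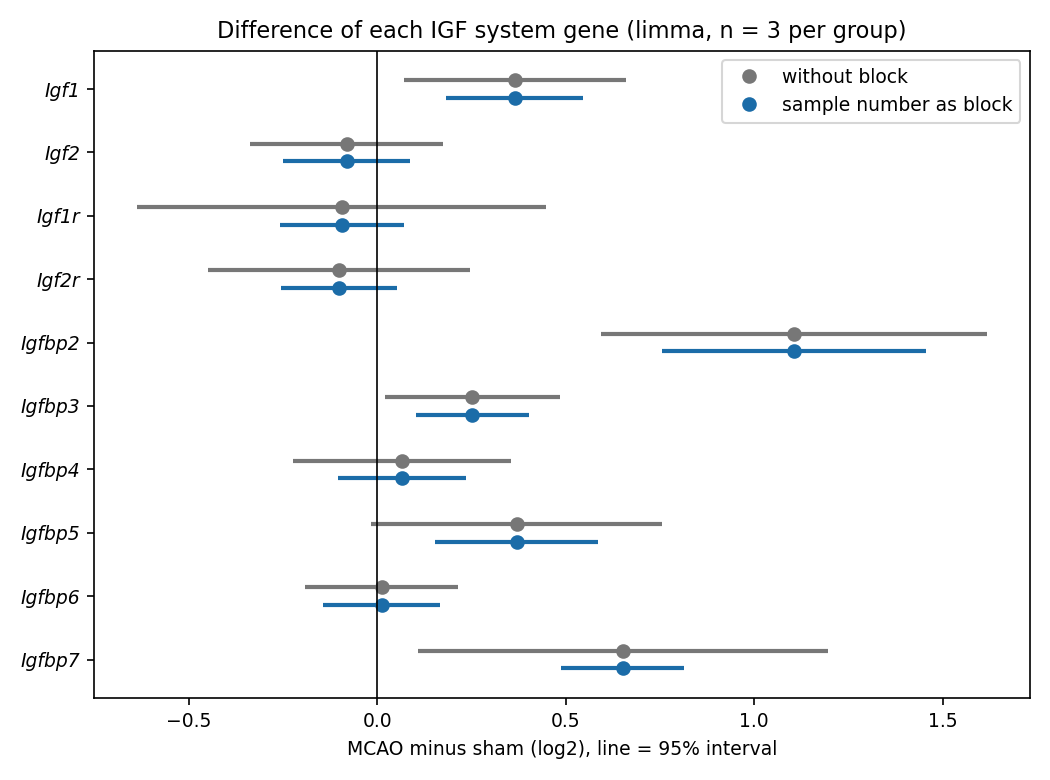
Difference between MCAO and sham (log2, x axis) for each of the 10 genes, with points at the estimate and lines for the 95% interval of limma's moderated test, in grey without the block and in blue with the sample number as block. Igfbp2 at 1.11 and Igfbp7 at 0.65 lie farthest from 0, and the intervals of 5 genes still include 0 with the block.

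Igfbp3 and Igfbp5 read higher in all pairs without passing. Igfbp3, the main carrier of IGFs in blood, read 7.13, 6.85 and 7.04 in MCAO and 6.82, 6.62 and 6.82 in sham. The groups did not overlap, and the differences within pairs were close to each other, at 0.31, 0.22 and 0.23. The mean difference was 0.25 ± 0.10 log2 (SE, n = 3 per group), or 1.19-fold, with an adjusted p by limma of 0.492, and 0.0564 with the block. The second probe set of Igfbp3 read 0.39 log2 (adjusted p = 0.463 over all probe sets, and 0.0518 with the block). Without samples 2 the blocked difference of Igfbp3 was 0.27 and passed (adjusted p = 0.0393), while without samples 1 (0.23, adjusted p = 0.425) or samples 3 (0.27, 0.148) it did not pass.

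Igfbp5, the binding protein that attaches to extracellular matrix, read 9.85, 10.17 and 9.98 in MCAO and 9.27, 9.68 and 9.93 in sham. Sham sample 3 stood within the MCAO range. The mean difference was 0.37 log2 with an interval from −0.02 to 0.76 (limma's adjusted p = 0.607), and from 0.15 to 0.59 with the block (0.0537). Within pairs it was 0.57, 0.48 and 0.05. With the pair numbered 3 left out, the blocked difference was 0.53 and passed (adjusted p = 0.00471). With the pair numbered 2 left out it was 0.31 and also passed (0.0437), but with the pair numbered 1 left out it was 0.27 and did not (0.315). Without sham sample 1 alone, the difference with no block was 0.19. Its other probe set read 0.11. The probe sets used for Igfbp3 and Igfbp5 have names ending in _s_at, which marks probes that may also bind related transcripts.

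Igfbp4 and Igfbp6 differed least from sham. Igfbp4, which the protease PAPPA cleaves, read 9.07, 9.11 and 9.33 in MCAO and 8.86, 9.19 and 9.26 in sham. Its difference of 0.06 log2 had an interval from −0.11 to 0.23 with the block (limma's adjusted p = 0.736). Its 5 other probe sets read between −0.12 and −0.06, so the sign for Igfbp4 is not settled. Igfbp6, which prefers IGF2 over IGF1, read 7.20, 7.27 and 7.45 in MCAO and 7.23, 7.31 and 7.34 in sham. The Igfbp6 difference was 0.01 log2, with a blocked interval from −0.14 to 0.17, and its upper bound lies below the differences of Igfbp2 and Igfbp7.

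**Figure D3:**
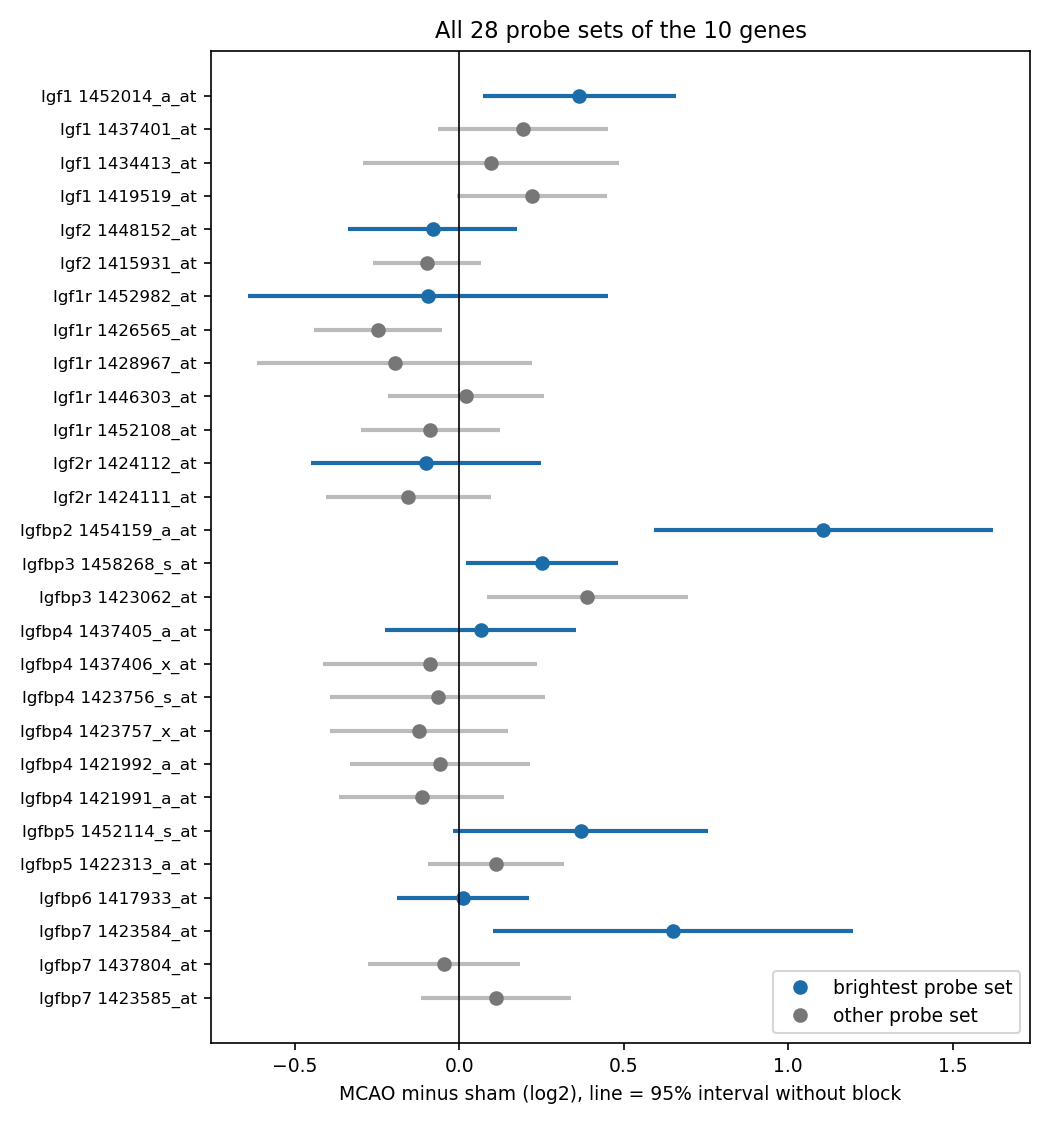
Difference between MCAO and sham (log2, x axis) for all 28 probe sets of the 10 genes, with 95% intervals without the block; blue marks the brightest probe set of each gene. The 4 probe sets of Igf1 and both of Igfbp3 lie above 0, while the brightest probe sets of Igfbp7 at 0.65 and Igfbp4 at 0.06 lie above the others of their gene.

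Across the 10 genes, 6 had the same sign in all 3 pairs, 5 of them higher and 1 lower in MCAO, a share to set against 39.8% of all genes measured. Values of the groups did not overlap for 3 genes, all higher in MCAO, against 13.8% of all genes in either direction, 8.40% with MCAO above sham and 5.36% with MCAO below. Of the 6 binding proteins all 6 read higher in MCAO on their brightest probe set, with Igfbp4 and Igfbp6 near 0. Igfbp4 read higher on only 1 of its 6 probe sets, so its direction is not settled. Both receptors and Igf2 read lower without passing. Of all genes measured 8674 read higher and 9519 lower.

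Genes whose profile over the 6 arrays was most like that of a called gene were ranked by the root mean square difference between log2 profiles, each centred on its own mean. For Igfbp2 they were the phagocyte oxidase subunit Cybb (0.15), the class I histocompatibility gene H2-D1 (0.16) and the Fc receptor chain Fcer1g (0.16). For Igf1 they were the centromere gene Cenpl (0.04), the transcription factor Sall1 (0.05), which marks microglia, and the mitochondrial carrier Slc25a24 (0.06). For Igfbp7 they were the cytochrome b5 reductase Cyb5r3 (0.06), the sodium pump subunit Atp1b2 (0.09) and Trip6 (0.10). The measure weighs the size of a difference, so a weakly changed gene has many close profiles.

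Of 50 other genes of the pathway, 40 were measured. None passed by limma without the block, and 3 had an unadjusted p under 0.05, as had 1598 of the 18193 genes. With the block 1 rose and 3 fell, 4 in all, beside 4.83% of all genes as rises and 1.31% as falls. The blocked fit gave 2 calls without samples 1, 6 without samples 2 and 2 without samples 3. Over all genes it then gave 660, 2040 and 667. The median difference of the 40 genes was −0.03 log2, with 13 higher and 27 lower in MCAO, against 8674 higher and 9519 lower of all genes. The gene that rose was Eif4ebp1, the translation repressor that mTOR phosphorylates, by 0.38 ± 0.09 log2 (blocked SE, adjusted p = 0.0352). All 3 probe sets of Eif4ebp1 read higher, at 0.38, 0.57 and 0.04 log2. Adjusted over all probe sets with the block, 1 of the 3 passed, and the brightest did not (limma's adjusted p = 0.0610). The gene also did not pass in the blocked fit without samples 3 (0.24, adjusted p = 0.198).

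The genes that fell with the block were Pik3r1, Gsk3b and Foxo1, of which Gsk3b and Foxo1 were chosen after their values were seen. Pik3r1, the regulatory subunit of PI3 kinase, read 8.80, 7.83 and 7.68 in MCAO and 9.10, 8.67 and 8.67 in sham. MCAO sample 1 lay within the sham range, and the differences within pairs were −0.29, −0.84 and −0.98. Pik3r1 fell by 0.71 log2 (adjusted p = 0.499 unblocked and 0.00460 blocked), and without MCAO sample 1 it passed with no block (−1.05, adjusted p = 0.0170). Its 4 probe sets split, reading −0.71, −0.78, 0.02 and −0.02. Gsk3b, a kinase that AKT inhibits, fell by 0.32 (adjusted p = 0.0490 with the block), and Foxo1, a transcription factor that AKT keeps out of the nucleus, fell by 0.27 (0.0433). All 6 probe sets of Gsk3b and all 4 of Foxo1 read lower in MCAO. Adjusted over all probe sets with the block, 1 of the 6 for Gsk3b and 0 of the 4 for Foxo1 passed. The brightest had an adjusted p by limma of 0.0803 and 0.0717 there. Neither gene passed in limma's blocked fit of the values as deposited (adjusted p = 0.104 for Gsk3b and 0.234 for Foxo1). With the block, Gsk3b did not pass without samples 1 or 2 (0.261 and 0.0752), nor Foxo1 without samples 1 or 3 (0.302 and 0.113).

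Other pathway genes with the smallest p did not pass with or without the block. The insulin receptor gene Insr read −0.18 and the insulin receptor-related gene Insrr −0.23, each with all MCAO values below all sham values. Of the 40 pathway genes 2 lay wholly below sham and 0 wholly above, beside 5.36% and 8.40% of all genes. The kinase gene Akt2 read 0.19 and the adaptor gene Irs1 0.13. Pappa, the protease that cleaves Igfbp4, read 0.14, and Igfbpl1, a related gene of neuroblasts, −0.02, both without passing and both named for their role, not their p.

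Marker lists of the cells that could supply these transcripts moved unequally. In bulk tissue, more cells of a type and more RNA per cell cannot be told apart. Beside Igf1, 2 of 11 homeostatic microglia markers rose without the block and 7 with it. Their summed level was 12.54 to 13.12 log2 in MCAO and 12.11 to 12.16 in sham. Of 12 activated phagocyte markers 6 rose (10 with the block), with summed levels of 12.68 to 13.21 in MCAO and at most 12.11 in sham. First by p in these lists were Fcrls, which rose by 1.58, and Fcgr1, which rose by 1.35 log2. Of 11 monocyte and border macrophage markers 4 rose, Mrc1 first by p at 0.96, and 5 with the block, with summed levels of 10.07 to 10.21 in MCAO and 9.73 to 9.84 in sham. Of these 11 markers 8 read higher and 3 lower. All MCAO values lay above all sham values for 5 and below them for 1, Cd163 at −0.13, beside 8.40% and 5.36% of all genes. The part of these cells in the Igf1 and Igfbp2 differences was not tested.

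Beside Igfbp2, 7 of 13 reactive astrocyte markers rose (10 with the block), with summed levels of 12.99 to 13.59 in MCAO and 10.96 to 11.50 in sham. Cd44 and S1pr3, first by p, rose by 1.97 and 2.01 log2. The part of reactive astrocytes in the Igfbp2 difference was not tested. Of 12 markers of astrocytes in healthy tissue, 2 rose (3 with the block). In that list 7 markers read higher and 5 lower, with a median difference of 0.08 log2. Its sums overlapped, at 14.52 to 14.93 in MCAO and 14.52 to 14.82 in sham. None of 12 choroid plexus markers and none of 14 markers of leptomeningeal cells and fibroblasts passed with or without the block. The choroid plexus list summed to 10.15 to 10.45 in MCAO and 10.20 to 10.34 in sham. Of its markers 8 read higher and 4 lower, with a median difference of 0.05 log2, and Ttr, the transthyretin gene first by p, read −0.28. The leptomeningeal list summed to 10.77 to 10.90 in MCAO and 10.73 to 10.79 in sham. Of its markers 8 read higher and 6 lower, with a median difference of 0.03 log2. For 3 of them all MCAO values lay above all sham values, beside 8.40% of all genes. Col1a2, the collagen gene first by p, was 1 of these and read 0.32 (limma's adjusted p = 0.0503 with the block).

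Beside Igfbp7 and Igfbp3, 0 of 11 endothelial markers passed with or without the block. Cldn5, the tight junction gene first by p in that list, read 0.28, with summed levels of 10.96 to 11.16 in MCAO and 10.97 to 11.06 in sham. Of 11 mural cell markers 1 rose, the smooth muscle gene Tagln by 1.94 log2, and the list summed to 11.66 to 11.95 in MCAO and 11.41 to 11.52 in sham. Without Tagln, left out after its values were seen, the other 10 summed to 11.32 to 11.39 in MCAO and 11.31 to 11.41 in sham, and their median difference was 0.03 log2. The part of vessel cells in the Igfbp7 difference was not tested. The values are log2 signals with no zero, so that absence of a marker cannot be read from them.

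**Figure D4:**
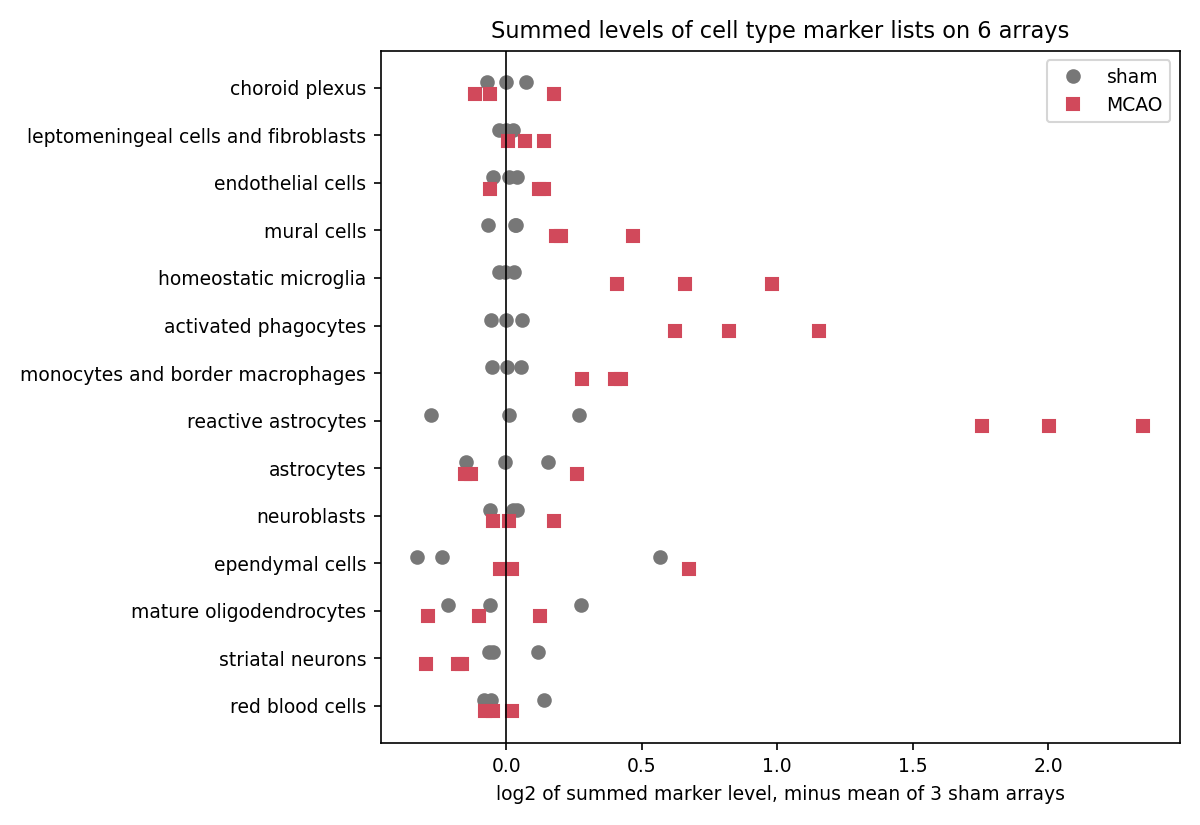
Log2 of the summed level of each marker list on each array, less the mean of the 3 sham arrays (x axis), with grey circles for sham and red squares for MCAO. Summed levels of the reactive astrocyte, phagocyte, microglia and monocyte lists lie above sham on all 3 MCAO arrays. So does the mural sum, which overlaps sham without Tagln. The striatal neuron sum lies below sham on all 3 MCAO arrays, and the choroid plexus and endothelial lists overlap sham.

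Other lists describe the cells of the zone and of its surroundings. Dcx, which defines neuroblasts, averaged 9.13 in MCAO and 9.01 in sham, and the ependymal gene Foxj1 averaged 7.64 and 7.39. The neuroblast marker first by p was Dlx6, at −0.33 without passing. None of 11 neuroblast, 10 ependymal, 9 mature oligodendrocyte, 8 striatal neuron or 3 red blood cell markers passed without the block. With it 1 neuroblast marker (Cd24a, 0.66) and 1 ependymal marker rose, and 2 striatal markers fell. All 8 striatal markers read lower in MCAO, and their list summed to 14.44 to 14.57 in MCAO and 14.67 to 14.85 in sham. The part of striatal neurons in the differences of the pathway genes was not tested. All 10 ependymal markers read higher in MCAO, with a median difference of 0.25 log2, and the groups overlapped for each of them. The summed ependymal level was 12.55 and 12.44 on MCAO 2 and sham 2 against 11.55 to 11.90 on the other arrays. Within each same-numbered pair this sum was higher in MCAO.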

How the data were processed

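RNA of 6 samples was labelled with biotin and hybridised to one-colour arrays, per the labels. The authors deposited 1 log2 value per probe set; the background correction, probe summary, normalization and software were not given in the sources used here. Array medians ran from 6.57 to 6.59 and 90th percentiles from 8.85 to 9.06, so quantile normalization was added after leaving out 64 control probe sets. The number of arrays limits the precision. Names came from the annotation table of the array (34945 probe sets with 1 symbol, used here), and 1 probe set stood for each gene, that with the highest mean. MCAO was compared with sham over 18193 genes with limma 3.58.1 under R 4.3.3 (functions lmFit and eBayes, two-sided, Benjamini-Hochberg), which was tested on simulated data. Fold changes are 2 to the power of the log2 difference.

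The labels number samples 1 to 3 in both groups without saying why. Across genes, the departures of same-numbered arrays from their group means correlated at 0.77, 0.44 and 0.48, each above 0.1. On that ground the numbers were taken to pair the samples, and the blocked values are given beside the unblocked ones. Departures within a group sum to 0, so likeness of the arrays numbered 1 by itself raises the correlations for numbers 2 and 3. Arrays of different number were not compared, so these values do not show that samples 2 and 3 are paired. Both arrays numbered 1 stood apart along the component with 40.8% of the variance, and their poly-A control probe sets averaged 7.69 and 7.96 log2 against 8.65 to 9.23 on the other arrays.

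The members and gene lists were chosen with earlier results of these data known. Genes named are the 10 members, other pathway genes past the threshold or the 3 with the smallest p in each direction, the 3 most similar profiles per called member, and the markers with the smallest p in a list; Dcx, Pappa and Igfbpl1 were named outside this rule for their role. Alternatives covered normalization, variance model, dim genes, probe sets, the block and left-out arrays. Promoter sequences are RefSeq's for GRCm38.p6.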

Additional observations from a re-analysis of the deposited data

How the results depend on the processing

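By limma's test the 0 calls among the 10 genes stayed 0 with no added normalization, with median-shifted arrays, with robust variance, without dimmer genes and with the mean of probe sets; 1598 of all genes had an unadjusted p under 0.05. An intensity trend gave 1 call. The replicate block gave 3 calls on quantile-normalised values and 3 as deposited, and for the other pathway genes 4 and 2. Over all genes the count was 1117 and 816 with the block, against 207 without it. Leaving out arrays without the block gave 0 to 1 calls among the 10 genes, 0 to 1 among the other pathway genes and 43 (without sham 3) to 235 (without both samples 1) over all genes, with 98, 125 and 131 without MCAO 3, sham 1 and sham 2. With the block and each pair left out in turn, alternatives chosen after seeing the data, the calls were 2, 5 and 4 among the 10 genes, 2, 6 and 2 among the other pathway genes and 660, 2040 and 667 over all genes; such a fit has 4 arrays, and its spread is borrowed largely from other genes. The paired analysis left every difference as it was and changed only its error.

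Directions reversed only for differences near 0 and for single probe sets; the cause was not tested. Igf1r read 0.014, 0.051 and 0.085 without MCAO 2, MCAO 3 or sham 1 and 0.019 on 1 other probe set, and ran from −0.35 to 0.085 over left-out arrays. Igf2r read 0.042 without sham 1, from a range of −0.22 to 0.042. Igfbp4 read −0.064 with the mean of probe sets, −0.013 and −0.059 without MCAO 3 or sham 1, −0.011 without both samples 1 with or without the block, and −0.11, −0.059, −0.066, −0.12 and −0.090 on its other probe sets; leaving out single arrays gave −0.059 to 0.14. Igfbp6 read −0.060 and −0.020 without MCAO 3 or sham 1 and −0.036 with the block without samples 3, from a range of −0.060 to 0.064, and Igfbp7 −0.046 on 1 other probe set. Igf1 and Igfbp3 fell to the filter on dimmer genes and were not tested under it.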
